A study of Mus musculus with 3 samples.

Results

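The HoxC cluster is a run of 9 homeobox genes, and its signal was read here in mouse dorsal cortex taken 4 days after birth. Members were all non-control probes on the arrays whose accession, or name in the authors' deposited table, belongs to a HoxC gene, dim probes included. This gave 9 probes, 1 for each of Hoxc4, Hoxc5, Hoxc6, Hoxc8, Hoxc9, Hoxc10, Hoxc11, Hoxc12 and Hoxc13, among 55681 non-control probes, or 9 of 23333 genes with a symbol. Each probe was printed as 1 spot per array and was named through its RefSeq accession. The RNA came from Brpf1-deficient pups, labelled with Cy5, and from wild-type pups, labelled with Cy3, and 1 pup of each kind shared each of 3 two-colour Agilent arrays. The pups had no treatment, and 350 ng of total RNA per sample went through a single round of amplification. The allele, the strain, and any driver that removes Brpf1 are not stated in the labels. Brpf1 encodes a scaffold protein of histone acetyltransferase complexes.

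Hox genes encode DNA-binding homeodomain proteins that tell cells of the hindbrain and trunk where they lie along the head-to-tail axis. Their order along a chromosome follows the order of their expression along the body: Hoxc4 at the 3′ end of the cluster is used furthest forward, and Hoxc13 at the 5′ end furthest back. The forebrain, which includes the cortex, lies in front of the domains in which Hox genes are normally used. Polycomb group proteins keep Hox clusters silent outside those domains, while trithorax group proteins and the acetyltransferase MOZ, a BRPF1 partner, keep them active within.

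The promoter of Hoxc4 is shown because that probe carried the most negative ratio on the arrays. RefSeq's promoter sequences for GRCm38.p6 were matched by symbol for 1 of the 9 genes, at chr15:103034145-103034444 on the plus strand. Capitals mark matches to GGGCGG, a GC box, and to AGGTCA, a half-site of retinoic acid receptors, searched on both strands.
Hoxc4: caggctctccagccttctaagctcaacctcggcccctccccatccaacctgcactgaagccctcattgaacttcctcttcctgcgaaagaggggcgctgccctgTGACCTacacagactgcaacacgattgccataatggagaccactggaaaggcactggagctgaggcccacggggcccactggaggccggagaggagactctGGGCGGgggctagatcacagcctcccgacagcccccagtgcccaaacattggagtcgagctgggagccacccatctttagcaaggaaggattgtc
Of 32851 promoters of this length, 35.7% held GGGCGG and 16.3% held AGGTCA on either strand. The window contained 9 CpG dinucleotides, against a median of 7 over all promoters. A search for TATAAA, GCCATNTT and TGATNNAT found no match in these letters. The 3 motifs occur in 13.6%, 6.05% and 8.85% of all promoters, in that order.

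The genotype behind each direction is unsettled. The probe of Brpf1 itself was brighter in the channel labelled Brpf1-deficient, where its log2 Cy5/Cy3 values were 0.63, 0.73 and 0.96 on arrays 1 to 3 (mean 0.77 ± 0.17, SD, n = 3 arrays, limma adjusted p = 0.00452). In the authors' deposited table Brpf1 has a log2 fold change of -0.80, and all 5568 probes called here have the opposite sign there. The direction of that table is not stated, so its signs cannot settle which label is right. Since the deleted exons and the probe's place among them are unknown here, the probe may not test the labels at all. All results are therefore given by channel as labelled, with a negative log2 ratio for a probe brighter in Cy3. Every array used the same dyes for the same labels, so dye and genotype cannot be told apart for any single probe. In bulk tissue, fewer cells that express a gene and less RNA per cell cannot be told apart either.

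All 3 arrays lay on 1 slide and in 1 scan, and no spot was saturated. Well above background were 57.9% to 58.2% of spots in Cy5 and 59.9% to 61% in Cy3. Testing required signal well above background on 2 or more arrays in either channel. In the limma fit, 5568 of 32981 tested probes (16.9%) passed an adjusted p of 0.05, of which 2471 were brighter in Cy5 (7.49%) and 3097 brighter in Cy3 (9.39%). The share of calls brighter in Cy5 was 44.4%, and 80.4% with median centring in place of loess. The total was 2217 without array 3 and 1436 with the scanner software's processed signals. All 12 genes listed as markers of cortical identity were tested, and 11 were well above background on all 3 arrays in Cy5 and 12 in Cy3. By limma 5 were called brighter in Cy5 (Emx2, Lhx2, Tbr1, Bcl11b and Slc17a7, at 0.33 to 0.44) and 1 in Cy3 (Neurod6 at -0.38 ± 0.23). The count brighter in Cy5 was 1 with the processed signals or without array 3, and 3 without array 1. The largest shift in this list was that of Emx1, which was not called, at -1.58 ± 1.92 (SD, n = 3 arrays, limma adjusted p = 0.0959). Its array values of 0.65, -2.72 and -2.65 differed in sign.

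Of the 9 HoxC probes, 6 passed the filter, and all 6 were called brighter in Cy3, the channel labelled wild type. The background for such a call is 9.39% of tested probes. The filter keeps a probe that is bright in a single channel, so it favours probes that differ. Hoxc4, Hoxc6, Hoxc8 and Hoxc13 passed it through Cy3 alone, so the filter favoured the direction in which they were called. No HoxC probe was called brighter in Cy5, also at an unadjusted p of 0.05. Without the filter limma called 0 of 9 brighter in Cy5, where 4.96% of all probes were, and 6 brighter in Cy3, where 6.11% were. Over all 9 probes the median log2 ratio was -0.90, beside 0.0007 over all non-control probes, and the mean was below 0 for all 9, as for 49.8% of all probes. Hoxc4, Hoxc6 and Hoxc13 had Cy3 signal well above background on every array and Cy5 signal on none, a pattern held by 319 probes (0.573%). For 5 of the 6 tested genes all Cy5 values lay below all Cy3 values after normalisation, against 20.3% of all probes that passed the filter.

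**Figure D1:**
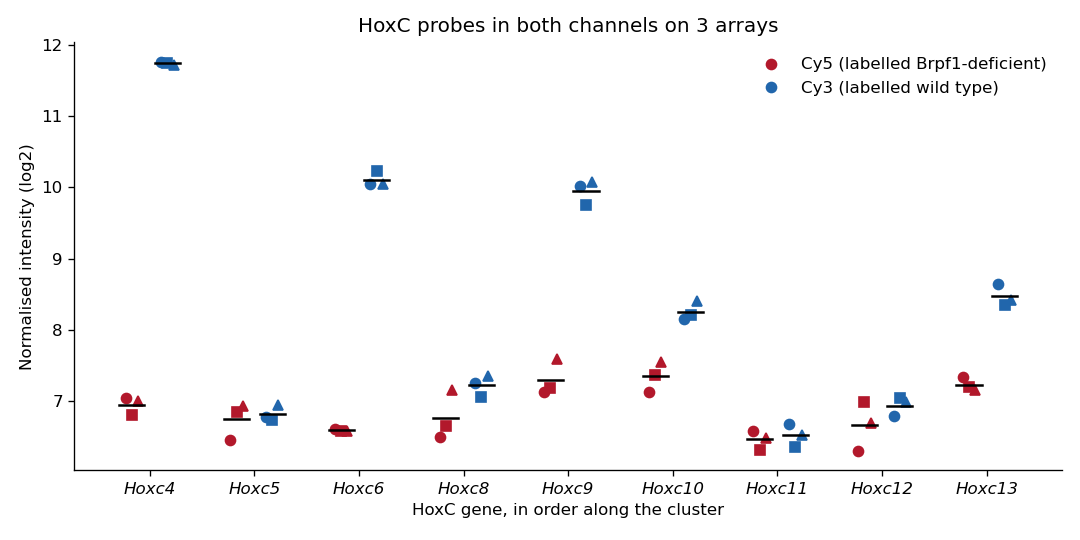
Normalised intensity (log2, vertical axis) of each HoxC probe in Cy5 (red, labelled Brpf1-deficient) and Cy3 (blue, labelled wild type); circles, squares and triangles are arrays 1, 2 and 3, and bars are means. Cy5 means lie between 6.47 and 7.35 for all 9 genes, while Cy3 means reach 11.74 for Hoxc4, 10.11 for Hoxc6 and 9.95 for Hoxc9.

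Hoxc4 lies at the 3′ end of the cluster and specifies neck and forelimb levels. Its spot read 135.5, 128 and 147 in Cy5 over local backgrounds of 122, 98 and 107, on arrays 1 to 3. In Cy3 it read 3013, 2366 and 2544 over backgrounds of 53, 38 and 47. Cy5 was thus near its background on every array while Cy3 was far above it. After normalisation the log2 values were 7.04, 6.80 and 7.00 in Cy5, against 11.76, 11.74 and 11.71 in Cy3. The log2 ratios of -4.72, -4.94 and -4.71 averaged -4.79 ± 0.13 (SD, n = 3 arrays, limma adjusted p = 8.59e-07). This was the lowest ratio of all tested probes. With no Cy5 signal well above background, the fold is a bound, and Hoxc4 was at least 27.6-fold brighter in Cy3. Its normalised Cy5 values were not under the floor used for bounds, so this bound equals the fold of its mean ratio.

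Hoxc6, a gene of thoracic level, gave spots of 116, 113 and 103 in Cy5 over backgrounds of 146, 104 and 104.5. In Cy3 it gave 922, 819 and 797 over 65, 39 and 44. On array 1 and array 3 its Cy5 spot was dimmer than the local background. The ratio was -3.51 ± 0.11 (SD, n = 3 arrays, limma adjusted p = 2.06e-06), the 3rd lowest of all tested probes, and Hoxc6 was at least 10.9-fold brighter in Cy3. Bounds such as this come from single channels and are open to dye bias.

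Hoxc5 lies between Hoxc4 and Hoxc6 and showed neither their Cy3 signal nor a Cy5 signal. Its spots read 140, 118 and 130 in Cy5 over backgrounds of 184, 102 and 103.5, and 95.5, 71 and 84 in Cy3 over 71, 41 and 44. It was not well above background in either channel on any array. Its log2 ratios were -0.32, 0.10 and -0.01, with both signs. The mean of -0.08 ± 0.22 (SD, n = 3 arrays) lay inside the range that held the middle of the 19888 probes dim throughout, whose 5th and 95th percentiles were -0.19 and 0.20. A difference in Hoxc5 was not detectable at this signal.

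Hoxc8 acts in the trunk and, in the mouse spinal cord, in motor neurons of brachial level. It read 143, 128 and 185 in Cy5 over backgrounds of 180, 126 and 132, and 127, 99 and 128 in Cy3 over 63.5, 50 and 57. Cy3 signal was well above background on 2 arrays and Cy5 signal on none. The normalised channel values overlapped, with a highest Cy5 value of 7.15 and a lowest Cy3 value of 7.07. The ratios of -0.76, -0.41 and -0.21 averaged -0.46 ± 0.28 (SD, n = 3 arrays, limma adjusted p = 0.032). This is the least secure of the 6 calls: with the processed signals it was -1.63 with a limma adjusted p of 0.0778. Hoxc8 was at least 1.33-fold brighter in Cy3.

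Hoxc9, a gene of thoracic identity that in the mouse keeps brachial motor neuron fates out of thoracic cord, had the most negative ratio among genes in the middle of the cluster. It read 162, 210 and 247 in Cy5 over backgrounds of 133, 141.5 and 126.5, and was well above background there on arrays 2 and 3. In Cy3 it read 891, 603 and 816 over 54, 52 and 51. Hoxc9 therefore had measurable signal in both channels on 2 arrays. Its ratios of -2.89, -2.57 and -2.48 averaged -2.65 ± 0.21 (SD, n = 3 arrays, limma adjusted p = 3e-05), a 6.26-fold difference and the 6th lowest of all tested probes. The size of this fold depends on the offset added before logs. With the processed signals, which carry no such offset, the ratio was -3.90.

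Hoxc10, a gene of lumbar level, was the other member with Cy5 signal, on 2 arrays. It read 190, 197 and 246 in Cy5 over backgrounds of 155, 111 and 134, and 243, 198 and 258 in Cy3 over 65, 41 and 55. The channels did not overlap after normalisation, at 7.13, 7.37 and 7.55 in Cy5 and 8.16, 8.21 and 8.41 in Cy3. The ratio was -0.90 ± 0.10 (SD, n = 3 arrays, limma adjusted p = 0.00132), a 1.87-fold difference. This size depends on the offset too, and the ratio was -1.62 with the processed signals.

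Hoxc11 and Hoxc12, genes of posterior body levels, were dim on all 3 arrays in both channels, as were 35.7% of all probes. Hoxc11 read 97, 97 and 100 in Cy5 over backgrounds of 128, 121 and 116, and 69, 61 and 65 in Cy3 over 51, 44 and 46. Its Cy5 spots were all dimmer than their local backgrounds. Its ratio was -0.06 ± 0.03 (SD, n = 3 arrays), with all 3 arrays below 0, but 0.25 with the processed signals. Hoxc12 read 122, 150 and 144.5 in Cy5 over backgrounds of 180, 118 and 142, and 99, 86 and 95.5 in Cy3 over 73.5, 40 and 52. Its ratios of -0.48, -0.05 and -0.29 averaged -0.28 ± 0.21 (SD, n = 3 arrays), below the 5th percentile of dim probes, and did not pass the unfiltered limma fit (adjusted p = 0.0785).

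Hoxc13, at the 5′ end of the cluster, is known for its role in hair and nail formation and in the tail. It read 201, 158 and 154 in Cy5 over backgrounds of 137, 93 and 98, and 332, 216 and 249 in Cy3 over 55, 37 and 44. Cy5 was not well above background on any array and Cy3 was on all 3. The ratios of -1.31, -1.15 and -1.25 averaged -1.24 ± 0.08 (SD, n = 3 arrays, limma adjusted p = 0.000272). Hoxc13 was at least 2.35-fold brighter in Cy3.

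Along the cluster the ratios did not form a single gradient. From the 3′ end, Hoxc4, Hoxc6 and Hoxc9 stood out, with Hoxc5 dim between the first pair and Hoxc8 weak between the second, and the ratio of Hoxc13 lay below those of Hoxc10, Hoxc11 and Hoxc12. Ordered by ratio, the array values of Hoxc4, Hoxc6, Hoxc9, Hoxc13, Hoxc10 and Hoxc8 did not overlap from each gene to the next. Within arrays, Hoxc4 lay below Hoxc6 by a log2 ratio of -1.28 ± 0.03, Hoxc6 below Hoxc9 by -0.86 ± 0.28 and Hoxc13 below Hoxc10 by -0.33 ± 0.06 (SD, n = 3 arrays). Hoxc8 overlapped Hoxc12, Hoxc12 overlapped Hoxc5, and Hoxc5 overlapped Hoxc11. Where Cy5 is at background the size of a ratio follows the Cy3 brightness of that probe and the offset added before logs, so this is an order of ratios and not of RNA levels. With the processed signals, which carry no such offset, the ratios of Hoxc4, Hoxc6, Hoxc9, Hoxc13 and Hoxc10 were -7.37, -6.42, -3.90, -2.47 and -1.62, with Hoxc8 below Hoxc10 at -1.63. With an offset of 16 in place of 50 they were -5.17, -4.01, -2.93, -1.46 and -1.07. Several probes dim in both channels had nearly the same processed ratio, such as 0.25 for Hoxc11, 0.25 for Hoxb1 and 0.24 for Hoxa11. Others differed, with -0.51 for Hoxc12 and -0.14 for Hoxc5. Processed signals may thus hold a floor of their own where Cy5 is not well above background, which was not tested.

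**Figure D2:**
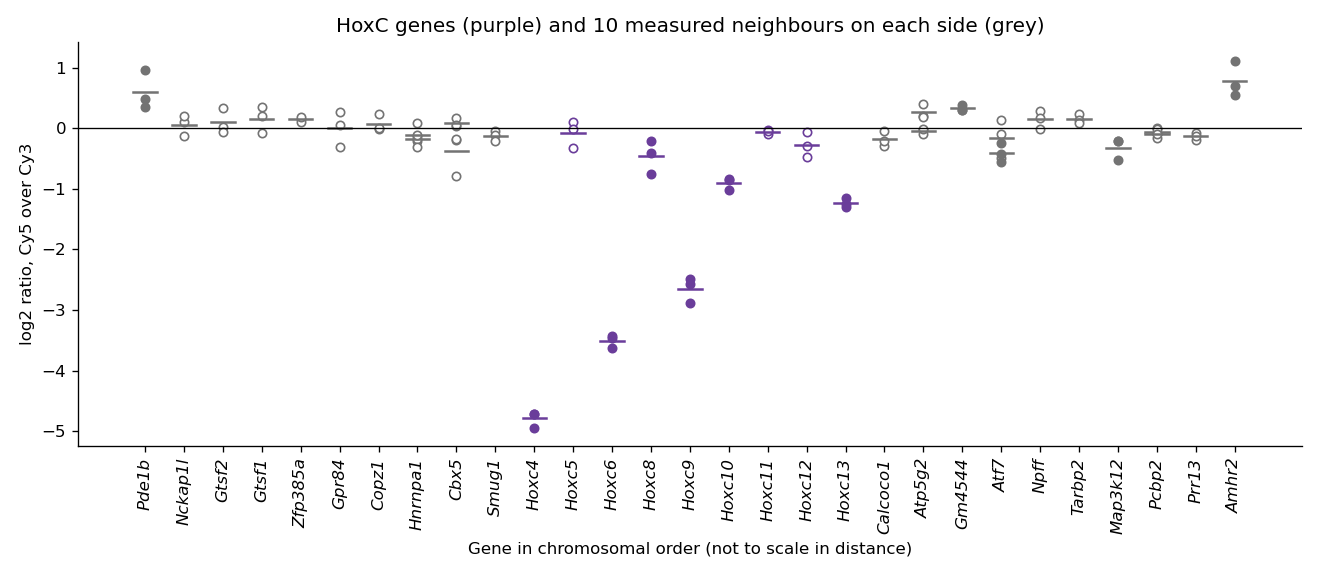
Log2 ratio of Cy5 over Cy3 (vertical axis) on each of 3 arrays for the HoxC genes (purple) and for the 10 nearest tested genes on each side (grey), in chromosomal order, with bars at the mean of each probe and filled circles for probes called by limma. The tested neighbours lie between -0.41 and 0.79, while Hoxc4 lies at -4.79.

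The genes on either side of the cluster did not share its ratios. The 10 nearest tested genes on each side were represented by 25 probes, of which 3 were called brighter in Cy5 and 2 in Cy3, beside the background of 16.9% for either direction. Their median log2 ratio was 0.0067, and they ranged from -0.41 to 0.79. Next to Hoxc4, Smug1, a DNA repair glycosylase gene, had -0.12 ± 0.08 (adjusted p = 0.263), and Cbx5, which encodes the heterochromatin protein HP1 alpha, had 0.08 ± 0.07 and -0.38 ± 0.35 with its 2 probes. Next to Hoxc13, Calcoco1, a gene for an autophagy receptor, had -0.18 ± 0.12 (SD, n = 3 arrays, limma adjusted p = 0.136). The called neighbours were Amhr2 at 0.79 ± 0.29, Pde1b at 0.60 ± 0.33, Gm4544 at 0.33 ± 0.05, Map3k12 at -0.32 ± 0.18 and 1 of 2 probes of Atf7 at -0.41 ± 0.15. The number called was 1 with the processed signals, 8 with median centring and 2 without array 3. Of the noncoding genes annotated inside the cluster, Hotair, Mir196a-2, Gm36878, Gm29905 and Mir615 had no probe under their names and are not analysed here.

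**Figure D3:**
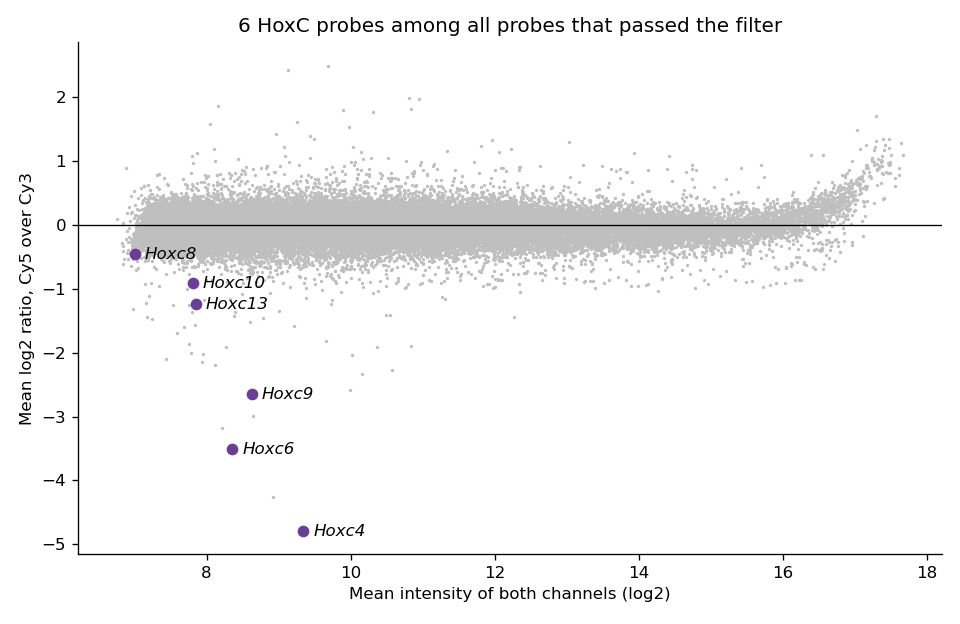
Mean log2 ratio of Cy5 over Cy3 (vertical axis) against mean log2 intensity of both channels (horizontal axis) for every probe that passed the filter (grey), with the 6 tested HoxC probes in purple. Hoxc4 at -4.79, Hoxc6 at -3.51 and Hoxc9 at -2.65 rank 1st, 3rd and 6th from the bottom, and the cloud bends above 0 at its bright right end, away from the HoxC probes.

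The HoxC probes were next set beside their paralogues, the genes of equal number in the A, B and D clusters, which descend from the same ancestral gene. In the same fit, 4 of 15 HoxA probes, 3 of 11 HoxB probes and 5 of 10 HoxD probes passed the filter, and 2, 3 and 4 of these were called brighter in Cy3 and none in Cy5, beside 9.39% and 7.49% of all tested probes. Of these called probes 1, 3 and 4 had Cy3 signal on all arrays and Cy5 signal on none, so they passed the filter through Cy3 alone. The other called HoxA probe, that of Hoxa10, also passed through Cy3 alone, with Cy3 signal on 2 arrays. A difference between clusters was not tested. Beside Hoxc4, Hoxd4 had -1.59 ± 0.15, and Hoxa4, tested and not called, had -0.03 ± 0.06. Beside Hoxc6, Hoxa6 and Hoxb6 were not well above background on any array, at -0.01 ± 0.17 and -0.11 ± 0.11.

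In group 8, Hoxd8 had -3.18 ± 0.07 and Hoxc8 -0.46 ± 0.28, and Cy5 was not well above background on any array for either. They were at least 8.51-fold and at least 1.33-fold brighter in Cy3. In group 9, Hoxd9 had -1.86 ± 0.11, while Hoxa9, well above background in both channels on all 3 arrays, had -0.06 ± 0.07 with 1 probe and was not called, and its other probe was dim in both channels at 0.14. In group 10 all 3 paralogues were called: Hoxc10 at -0.90 ± 0.10, Hoxa10 at -0.62 ± 0.28 and Hoxd10 at -0.71 ± 0.05. In group 13, Hoxb13 had -4.27 ± 0.17 and Hoxc13 -1.24 ± 0.08, and Cy5 was not well above background on any array for either. The Cy5 spots of Hoxc13 were still brighter than their local backgrounds on all 3 arrays. The bound for Hoxb13 was at least 18.8-fold towards Cy3. The sizes of such ratios depend on each probe's Cy3 brightness and are not ranked between probes. Hoxa13 and Hoxd13 were dim. In group 5, Hoxb5 had -1.43 ± 0.46 beside the dim Hoxc5. No probe of groups 11 and 12 was called in any cluster by this filtered fit. Values after ± are SDs over 3 arrays.

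**Figure D4:**
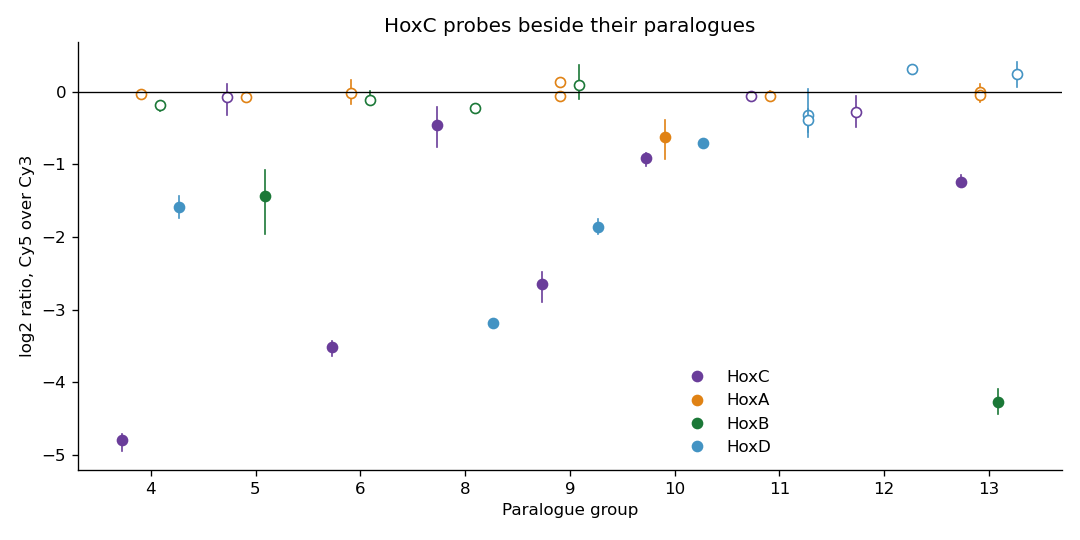
Mean log2 ratio of Cy5 over Cy3 (vertical axis) of every probe in the paralogue groups that the HoxC cluster holds, coloured by cluster, with vertical lines from the lowest to the highest of 3 arrays and filled circles for probes called by limma. Called probes all lie below 0, among them Hoxc4 at -4.79, Hoxc6 at -3.51, Hoxd8 at -3.18 and Hoxb13 at -4.27, for which Cy5 was not well above background on any array.

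Outside the Hox clusters, the 6 named genes whose 3 ratios lay nearest to those of Hoxc4 by Euclidean distance were all far from it. They were Wt1 (distance 3.14), Nkx2-3 (3.83), Tal1 (4.37), Tbx5 (4.52), the expressed sequence AI448005 (4.60) and Foxa1 (4.68). Their mean log2 ratios ran from -2.99 for Wt1 to -2.10 for Foxa1. This likeness rests on 3 arrays and mostly reflects the size of the mean.

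Hox proteins bind DNA together with the PBX, MEIS and PKNOX homeodomain proteins. All 9 cofactor genes were well above background on all 3 arrays in both channels, with a median log2 ratio of 0.10, beside -0.01 over all tested probes. Of these, 1 was called brighter in Cy5 and none in Cy3, beside 7.49% and 9.39% of all tested probes. The 1 called was Meis2, at 0.38 ± 0.27 with a limma adjusted p of 0.049. No cofactor was called in Cy5 with the processed signals, with an offset of 16, with 1 probe per gene, or without array 1 or array 3. At an unadjusted p of 0.05, 1 cofactor was brighter in Cy3, and without array 1 the limma fit called 1. Pbx3 had -0.25 ± 0.20 (SD, n = 3 arrays, limma adjusted p = 0.095).

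Of 20 genes known to regulate Hox clusters, 16 were tested, and the median was -0.08. Among the 16, limma called 1 brighter in Cy5 and 2 in Cy3, beside 7.49% and 9.39% of all tested probes. Bmi1, which encodes a Polycomb repressive complex 1 protein, had -0.69 ± 0.09 (adjusted p = 0.00376), and Suz12, of Polycomb repressive complex 2, had -0.33 ± 0.12 (adjusted p = 0.0311). Both were lower in Cy5, as the tested HoxC probes were, and the count brighter in Cy3 was 1 with the processed signals, with median centring or without array 3. Rarb, a retinoic acid receptor gene, had 0.92 ± 0.76 (SD, n = 3 arrays, limma adjusted p = 0.0405), with array values of 1.65, 0.14 and 0.96, and was not called with the processed signals or without array 1 or array 3. Kat6a, which encodes MOZ, had -0.09 ± 0.09 (adjusted p = 0.418), Ezh2 -0.07 ± 0.08 and Kmt2a -0.11 ± 0.14. The caudal genes Cdx1, Cdx2 and Cdx4, activators of Hox genes in the embryonic trunk, were not well above background in either channel on any array.

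HoxC RNA is also present in tissues behind the head, so markers of such tissues were read from the same arrays. The counts called in each list stand beside 7.49% of all tested probes called brighter in Cy5 and 9.39% in Cy3. The normalised intensities of the 9 HoxC probes summed to 1026 to 1208 in Cy5 and 6568 to 6723 in Cy3. In Cy5 only Hoxc9 and Hoxc10 were well above background on any array, so that sum holds mostly signal near background and the offset. Hoxc4 gave the largest part of the Cy3 sum. For spinal cord and hindbrain, 7 of 16 genes were tested and limma called 2 brighter in Cy5 and 1 brighter in Cy3, with sums of 7768 to 10810 in Cy5 and 9700 to 11920 in Cy3. The motor neuron gene Mnx1 and the hindbrain and spinal genes Lbx1 and Slc6a5 were not well above background in either channel on any array. By limma, Chat, which makes acetylcholine, had -0.67 ± 0.36, while Slc18a3, its vesicular transporter, had 0.50 ± 0.36 and Egr2, a hindbrain and Schwann cell factor, 0.69 ± 0.17. The count brighter in Cy5 was 1 with the processed signals, without array 1 or without array 3, and 3 with no filter or without array 2. The count brighter in Cy3 was 0 with the processed signals, and 2 with no filter or without array 2. Isl1, a motor and sensory neuron factor, was well above background on all arrays in both channels and was not called, at 0.59 ± 0.69.

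For sensory ganglia, 8 of 9 genes were tested, with sums of 3068 to 3391 in Cy5 and 2753 to 3165 in Cy3. Limma called 1 brighter in Cy5 and 3 in Cy3, beside 7.49% and 9.39% of all tested probes. For skin and hair follicle, 8 of 10 were tested and limma called 1, brighter in Cy5, and likewise 1 and 0 at an unadjusted p of 0.05, with sums of 28250 to 30030 in Cy5 and 23260 to 24850 in Cy3. For meninges and fibroblasts, all 10 were tested and limma called 1, Prrx1 (no gene with the processed signals, with median centring or without array 1), brighter in Cy3 at -0.42 ± 0.22, and at an unadjusted p of 0.05, 1 was brighter in Cy5 and 3 in Cy3, with sums of 176100 to 200000 in Cy5 and 161800 to 178700 in Cy3. For skeletal muscle, 5 of 9 were tested and limma called 2, both brighter in Cy5, with no gene brighter in Cy3 at an unadjusted p of 0.05, with sums of 4924 to 5346 in Cy5 and 3847 to 4426 in Cy3, and Ckm and Myog were dim throughout. No muscle gene was called in Cy5 with the processed signals and 1 was without array 3. In Cy3, 1 ganglion gene was called with the processed signals, with median centring or without array 3.

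For kidney and limb mesoderm, 6 of 9 genes were tested and 3 were brighter in Cy3, as the HoxC probes were: Wt1 at -2.99 ± 0.32, Tbx5 at -2.19 ± 0.28 and Tbx4 at -0.30 ± 0.14, beside 9.39% of all tested probes. With Cy5 signal well above background on 1 array at most, all 3 passed the filter only because of Cy3. The filter thus favoured the direction in which they were called. Osr1, Sall1 and Lmx1b, well above background in both channels on all 3 arrays, were not called. The count brighter in Cy3 was 2 with the processed signals, with median centring and without any single array. None was brighter in Cy5, also at an unadjusted p of 0.05, the sums were 2549 to 2907 in Cy5 and 4024 to 4530 in Cy3, and Pax8, Hand2 and Shox2 were dim throughout. For erythroid cells, 7 of 10 were tested and limma called Hba-a1 and Hba-a2 brighter in Cy5 and Tal1 brighter in Cy3, with sums of 313600 to 443300 in Cy5 and 112300 to 276400 in Cy3. The erythroid count brighter in Cy5 was 0 with the processed signals and 5 without array 1 or without array 2. The part of any of these tissues in the HoxC ratios was not tested.

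The authors' deposited table lists 7 of the 9 HoxC probes, all with a positive log2 fold change, opposite in sign to the ratios above. Hoxc6 has 7.82, the highest in that table, Hoxc4 7.17, Hoxc9 3.99, Hoxc13 2.12, Hoxc10 1.61, Hoxc8 1.42 and Hoxc12 0.61 in the authors' deposited table. Their adjusted p in the authors' deposited table ran from 0.159 for Hoxc4 to 0.314 for Hoxc12, and none of its 40000 spots is under 0.05, while 9796 are at an unadjusted p. Hoxc5 and Hoxc11, both dim in the scanner files, are not among the 40000. The order differs from that above only in that Hoxc6 stands before Hoxc4.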

How the data were processed

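Per the file headers, Agilent Feature Extraction 10.7.3.1 read both colours on a grid built on mm9. The deposited intensity values are spot medians and local background medians, not normalized, and the processed intensity is background-subtracted, detrended and dye-normalized. Flags mark spots well above background. The authors also deposited log2 fold changes with p-values for 40000 spots, made with limma per the submitters' processing notes. The table's direction and normalization are not stated.

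Here medians were corrected with normexp (offset 50) and normalized by loess per array with control spots at weight 0 in limma 3.58.1 under R 4.3.3. Outlier spots (250 to 272 non-control spots per array) were left out, and the spots of a probe were averaged. The log2 ratio was tested against 0 per probe, in a two-sided limma fit, adjusted by Benjamini-Hochberg over the probes that passed the filter. The labels name 3 pairs but no litters, so p-values measure only the spread between these arrays. On simulated data for this comparison, with 32983 probes, all 53 probes changed by a log2 ratio of 2 and all 74 changed by 0.5 were recovered, with 7 false calls. This recovery holds for the simulated spread only. On the real arrays Emx1 at -1.58 ± 1.92 and Isl1 at 0.59 ± 0.69 were not called. Bounds used channel values after loess and Aquantile: the bright channel's mean less the dim channel's mean, after raising each dim value to that array's lowest signal well above background where it fell under it. In Cy5 this floor was 6.22, 6.79 and 6.52 (log2) on arrays 1 to 3. It is set by the dimmest flagged probe and is not a limit of detection. The unflagged Cy5 values of Hoxc4 and Hoxc13 lay above it, so nothing was raised for them. Neighbours were taken from gene order in a RefSeq table of GRCm38.p6, whose build is not the grid's. List genes are represented by their tested probe of highest mean intensity. Members, gene lists, tests and the rule for named genes were chosen with earlier results of these data known. The rule names every HoxC probe, Brpf1, the genes of smallest adjusted p in each list, the nearest genes to Hoxc4 by ratio, and the paralogues. It was not followed for sensory ganglia, skin and skeletal muscle, whose genes of smallest adjusted p are left unnamed. Other genes named were chosen after their values were seen. The number of arrays limits the precision. Alternatives were the processed intensity, median centring, an offset of 16, no filter, a filter on all 3 arrays, 1 probe per gene, and leaving out each array.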

Additional observations from a re-analysis of the deposited data

How the results depend on the processing

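The count of HoxC probes brighter in Cy3 was 5 with the processed signals, where Hoxc8 missed the threshold, and 5 with the filter on all 3 arrays, where Hoxc8 was not tested. It was 6 under the other 7 alternatives, and no HoxC probe was called brighter in Cy5 under any of the 9. The 5 other tested members kept their sign and call throughout. All probes called numbered 5568, 1436 with the processed signals, and 2217 to 5698 when an array was left out, lowest without array 3. Of 25 neighbouring probes 5 were called, 1 with the processed signals, 8 with median centring, and 2 to 6 when an array was left out. Calls were 44.4% brighter in Cy5 and 80.4% with median centring. Dim Hoxc11 was 0.25 with the processed signals, -0.24 with median centring and -0.11 with an offset of 16, and dim Hoxc12 was -0.51 with the processed signals. Hoxc5 was 0.05 without array 1. The causes were not tested. Signal near background in Cy5 limits 7 of the 9 members. The fit is already paired, since each array gives the ratio within its pair, and no further replicate block applies.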
